A study of Mus musculus with 6 samples.

Results

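Transcripts of 10 genes that mark macrophages or belong to the complement system (C1qa, C1qb, C1qc, Cfp, Retnla, Lyz2, Csf1r, Adgre1, Icam2 and Apoe) were followed in the RNA of purified mouse platelets. The members were picked by symbol, all 10 were found among the 14975 genes of the deposited table, and they were picked with their values in these libraries already known. Their levels are therefore given as a description, without a test. The 6 libraries were 3 of BMT (bone marrow transplantation) control platelets and 3 of pre-AML platelets, numbered as in the labels (controls 1 to 3, and pre-AML 1, 2 and 3).

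All libraries came from C57BL/6 background mice, which the labels call WT for the control and AML for the pre-AML group. The paper's methods describe adult female recipients that were irradiated and then received either normal bone marrow (control) or GFP+ cells taken from primary recipients of hematopoietic progenitors transduced with an MLL-AF9 retrovirus (pre-AML), with blood drawn 1 week after transplantation. The labels give no week. MLL-AF9 was expressed from a retroviral construct rather than from its own locus. Normal cells of the host may have remained in the recipients, which the sources used here did not measure. The paper argues that nearly all platelets circulating at 1 week stemmed from abnormal megakaryocytes. The platelets were purified from platelet-rich plasma by removing cells that carry CD45, a leukocyte antigen, or Ter119, an erythroid antigen. The labels list 3 libraries per group, while the design text mentions 2 replicates and pools of 3 to 4 mice, and the paper's methods speak of independent mice for the RNA-seq. These sources differ on whether a library is 1 animal or a pool, and p-values below measure the spread between these libraries.

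Macrophages are tissue phagocytes that depend on signaling by the CSF1 receptor and that secrete complement components locally. C1q, the recognition part of the C1 complex, binds antibody and dying cells and starts the classical complement pathway, and properdin stabilizes the convertase of the alternative pathway. Platelets carry little RNA, inherit it from megakaryocytes and display on their surface inhibitors of complement such as CD55 and CD59.

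Values were deposited as FPKM, reads scaled by gene length and by a library size. Between 11935848 and 17777848 reads on listed genes were recovered per library, the most in pre-AML 3. The library size behind the FPKM values was 1.31 times the recovered reads in pre-AML 3 and between 0.983 and 1.01 times in the other 5 libraries, so an equal share of the reads gave a lower FPKM in pre-AML 3. On a transcript of 2 kb, 3 reads, the most that a count of 0 allows, correspond to between 0.0643 and 0.128 FPKM. These limits and all intervals below cover counting error only. Platelet genes were the most abundant in every library, with Pf4 (platelet factor 4) between 58030 and 79255 FPKM in the controls and at 60066, 59345 and 38150 FPKM in pre-AML libraries 1 to 3.

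Of the 10 transcripts, 9 were near background or low in 5 libraries and high in pre-AML 3, and the remaining one, Lyz2, was abundant in all 6 libraries. All 10 had their highest FPKM in pre-AML 3, which was so for 18.7% of the 4412 genes that averaged 1 FPKM or more and were tested. In pre-AML 3, 9 of the 10 were at least 10 times as high as in any other library, a pattern of 1.77% of those genes, and nothing is read from this difference because the members were chosen for it. The 9 members without Lyz2 took 21156 reads, or 0.119% of the recovered reads (95% exact interval 0.117% to 0.121%), in pre-AML 3. They took between 43 and 190 reads in the other libraries, at most 0.00128% of the recovered reads, in pre-AML 2. As a part of the larger library size behind the FPKM values, the share in pre-AML 3 would be lower. In a bulk library, more cells of a type and more RNA per cell cannot be told apart.

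**Figure D1:**
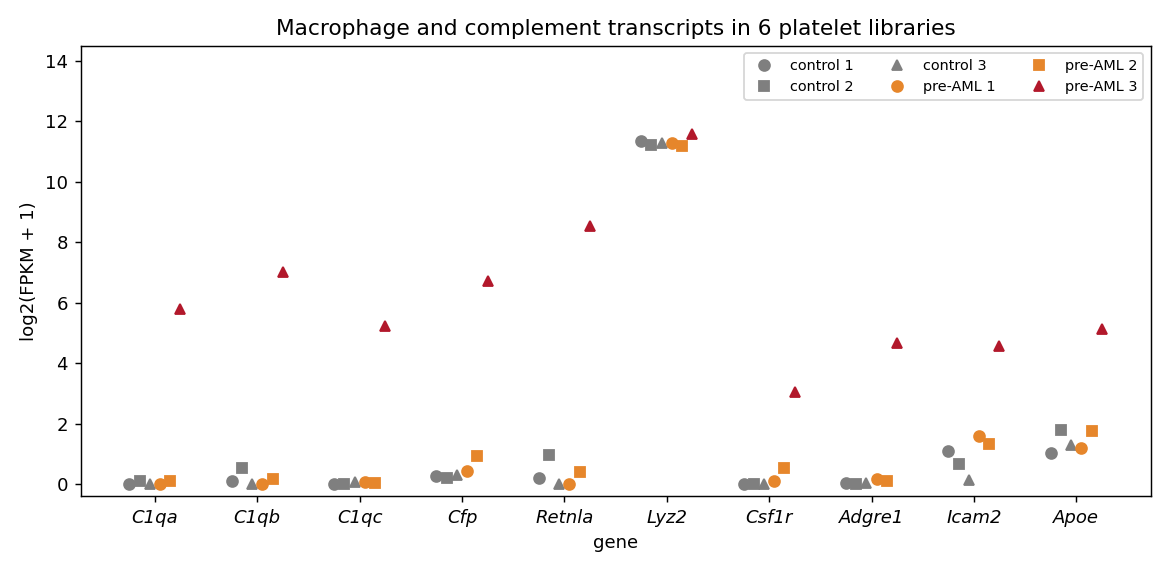
Level of each of the 10 genes in each library, as log2(FPKM + 1) on the vertical axis, with 1 point per library (grey, control 1 to 3; orange, pre-AML 1 and 2; red, pre-AML 3). For 9 genes the red triangle stands apart from 5 points near the bottom, while the 6 points of Lyz2 lie close together near the top.

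The 3 chains of C1q are encoded by adjacent genes on chromosome 4 of GRCm38 (mm10), all on the minus strand, with C1qb at 136880129 to 136886187, C1qc at 136889804 to 136893065 and C1qa at 136895917 to 136898803. C1qa, which encodes the A chain, was at 0, 0.0683 and 0 FPKM in controls 1 to 3 and at 0, 0.0637 and 54.1 FPKM in pre-AML libraries 1 to 3. Behind these values stood 1 read in control 2, 1 read in pre-AML 2 and 1312 reads in pre-AML 3, so the A chain was not detectable above single reads outside pre-AML 3. C1qb, for the B chain, was at 0.0783, 0.457 and 0 FPKM in the controls in the same order and at 0, 0.122 and 128 FPKM in the pre-AML libraries. Control 2, with 7 reads, thus held more C1qb than pre-AML 1 and pre-AML 2. C1qc, for the C chain, was at 0, 0 and 0.0435 FPKM in the controls and at 0.0389, 0.0343 and 37.0 FPKM in the pre-AML libraries, with 1667 reads in pre-AML 3 and at most 1 read in each of the other libraries.

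The assembled C1q molecule holds the chains in equal number, but the values here are of RNA and give no protein amounts. In pre-AML 3 the B chain made up 58.4% of the summed FPKM of the 3 genes, the A chain 24.7% and the C chain 16.9%, a comparison per length of the annotated exons. By reads alone, C1qc (1667) stood above C1qa (1312). The 3 transcripts ranked 263 (C1qb), 481 (C1qa) and 615 (C1qc) of the 14975 genes in pre-AML 3, and no better than 5781 in any other library. The next genes listed on either side of the cluster did not share the pattern. Ephb2 was at 1.17 FPKM in pre-AML 3 and between 0.967 and 1.78 FPKM elsewhere, and Zbtb40 was at or below 0.0560 FPKM in every library.

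Cfp (chromosome X, 20925454 to 20931555, minus strand) encodes properdin, a positive regulator of the alternative pathway. It was at 0.196, 0.164 and 0.242 FPKM in controls 1 to 3 and at 0.346, 0.916 and 105 FPKM in pre-AML libraries 1 to 3. The pre-AML libraries stood above the controls also without pre-AML 3, on 8 reads in pre-AML 1 and 24 in pre-AML 2 against 4, 4 and 5 in the controls. Elk1, the next gene listed, 1840 bases away, was at 0.478 FPKM in pre-AML 3 and between 0.375 and 0.713 FPKM in the other libraries. Timp1, the next on the other side, 50719 bases away, was at 0.386 FPKM in pre-AML 3 and at most 0.0800 FPKM elsewhere.

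Retnla (chromosome 16, 48842551 to 48844461, plus strand) encodes the resistin-like secreted protein also called FIZZ1 or RELMα, known as a product of macrophages exposed to IL-4. It was the most abundant of the 9 in pre-AML 3, with 375 FPKM from 5240 reads and rank 114 of all genes. It was at 0.142, 0.949 and 0 FPKM in controls 1 to 3 and at 0 and 0.332 FPKM in pre-AML 1 and pre-AML 2. As for C1qb, the second highest level was that of control 2, here on 8 reads. Retnlg, a neighbour of the same family that neutrophils express, was listed at 0 in pre-AML 3 and the controls and at 0.127 and 0.112 FPKM in pre-AML 1 and pre-AML 2.

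The members that encode surface proteins follow. Csf1r (chromosome 18, 61100598 to 61132149, plus strand) encodes the receptor for CSF1 and IL-34, on which most macrophages depend. It was at 0.0148, 0 and 0 FPKM in the controls and at 0.0651, 0.459 and 7.30 FPKM in pre-AML libraries 1 to 3, from 1, 0 and 0 reads against 5, 40 and 984. Every pre-AML library exceeded every control, and pre-AML 2 stood clearly above pre-AML 1. An exon of Hmgxb3 on the opposite strand overlaps Csf1r, and since the sources used here do not state that strand was counted, reads there cannot be assigned, though Hmgxb3 was at 0.174 FPKM or less in every library.

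Adgre1 (chromosome 17, 57358691 to 57483527, plus strand) encodes F4/80, the adhesion G protein-coupled receptor by which mouse macrophages are commonly recognized. It was at 0.0263, 0 and 0.0260 FPKM in the controls and at 0.116, 0.0819 and 24.6 FPKM in the pre-AML libraries, from 1, 0 and 1 reads against 5, 4 and 1860. The groups did not overlap, on very few reads outside pre-AML 3.

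Icam2 (chromosome 11, 106377656 to 106388075, minus strand) encodes an adhesion molecule of endothelium, leukocytes and platelets that also marks large macrophages of the serous cavities and binds the integrin LFA-1. It was at 1.119, 0.597 and 0.0883 FPKM in controls 1 to 3 and at 2.013, 1.497 and 22.6 FPKM in pre-AML libraries 1 to 3. The reads were 25, 16 and 2 in the controls and 51, 43 and 1003 in the pre-AML libraries. Each pre-AML library was above each control, and the controls themselves differed widely.

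In all, 4 of the 10 members (Cfp, Csf1r, Adgre1 and Icam2) were higher in all 3 pre-AML libraries than in all 3 controls, beside 6.14% of all tested genes. The same 4 were above all controls in pre-AML 1 and pre-AML 2 alone, beside 12.0% of all tested genes. For the other 6 the groups overlapped. Nothing is read from these shares, since the choice of members used the same values.

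Apoe (chromosome 7, 19696109 to 19699188, minus strand) encodes apolipoprotein E, a lipid carrier made by hepatocytes and macrophages. It was detected in every library, at 1.06, 2.48 and 1.43 FPKM in controls 1 to 3 and at 1.28, 2.38 and 34.3 FPKM in pre-AML libraries 1 to 3. Without pre-AML 3, both pre-AML libraries lay within the range of the controls. Its neighbours on the chromosome, Apoc1 and Tomm40, were at 0.155 and 0.981 FPKM in pre-AML 3. Tomm40 was thus highest there, against between 0.0532 and 0.2815 FPKM in the other libraries, while Apoc1 reached 0.154 FPKM in control 1. For the 5 of 7 listed hepatocyte markers in the table, the summed level was 0.394 FPKM in pre-AML 3 and between 0.0671 and 0.512 FPKM in the controls. Which cells the Apoe reads came from was not tested.

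Lyz2 (chromosome 10, 117277331 to 117282321, minus strand) encodes the lysozyme of myeloid cells, which macrophages, monocytes and neutrophils make in large amounts. It was at 2615, 2384 and 2475 FPKM in controls 1 to 3 and at 2483, 2333 and 3093 FPKM in pre-AML libraries 1 to 3. Lyz2 was among the 24 highest genes of each library, and the difference between the group means, 2491 ± 117 FPKM in the controls and 2637 ± 402 FPKM in pre-AML platelets (SD, n = 3 each), was smaller than the spread of the pre-AML libraries. As a share of the recovered reads it was between 0.311% and 0.339% in 5 libraries and 0.534% in pre-AML 3, so its level in pre-AML 3 was 1.26 times the pooled level of the other 5 on the deposited scale and 1.66 times their mean as a share of the reads. Lyz1, a near-identical copy 5476 bases away from which reads may not be fully separated, was between 0 and 0.787 FPKM in 5 libraries and at 59.0 FPKM in pre-AML 3. Lyz1 was named after its values were seen.

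The size of the excess in pre-AML 3 differed between members. Compared with the pooled reads of the other 5 libraries, C1qa was 1859 times as high (95% exact counting interval 514 to 15363, on 2 reads), C1qc 1574 times (538 to 7642, on 3 reads), Retnla 1237 times (708 to 2396) and C1qb 918 times (499 to 1917). These 4 intervals overlapped one another. Adgre1 followed with 479 times (267 to 961) and Cfp with 267 times (199 to 367), intervals that overlapped each other. The interval of Adgre1 also overlapped those of the first 4 genes, and that of Cfp did not. Csf1r stood at 60.6 times (45.1 to 83.3), Icam2 at 20.7 times (17.34 to 24.98) and Apoe at 19.3 times (16.9 to 22.3), and the intervals of Icam2 and Apoe overlapped each other but not that of Csf1r. The ratios compare 1 library with the others and not the conditions.

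**Figure D2:**
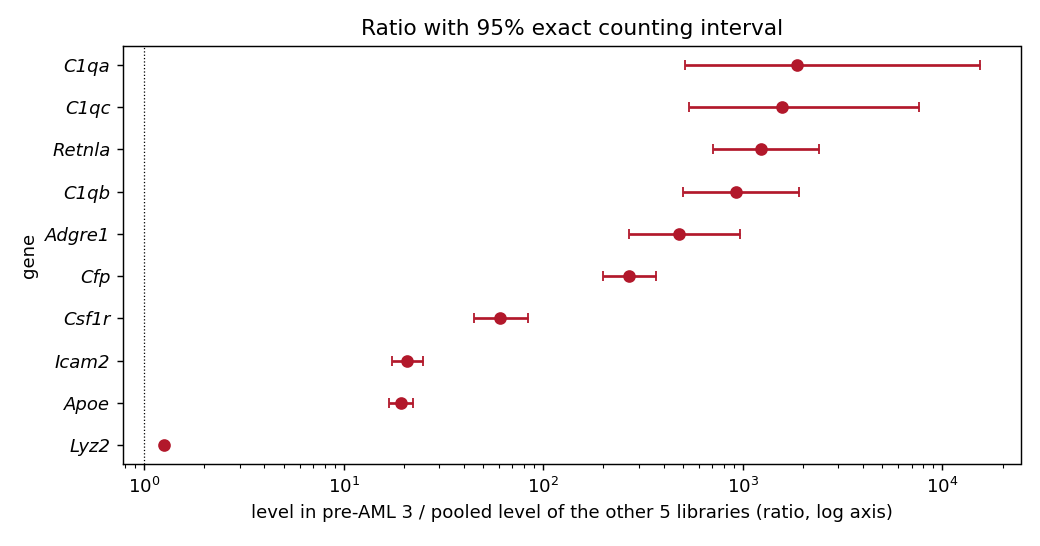
Ratio of the level in pre-AML 3 to the pooled level of the other 5 libraries on a logarithmic horizontal axis, 1 point per gene with its 95% exact counting interval, and a dotted line at a ratio of 1. C1qa, C1qc, Retnla and C1qb lie between 918 and 1859, Icam2 and Apoe near 20 and Lyz2 just above 1.

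Levels in pre-AML 2 and pre-AML 1 did not stand in one proportion to those in pre-AML 3. In pre-AML 2, Apoe was at 6.94% of its pre-AML 3 level (95% exact counting interval 5.40% to 8.79%), Icam2 at 6.63% (4.768% to 8.997%) and Csf1r at 6.29% (4.46% to 8.62%). Retnla was at 0.0885% (0.0183% to 0.259%), C1qb at 0.0954% (0.0116% to 0.345%) and Cfp at 0.874% (0.5596% to 1.303%). The intervals of the first group thus lie above those of the second. In pre-AML 1, Icam2 was at 8.92% (6.59% to 11.8%), Apoe at 3.72% (2.57% to 5.22%) and Csf1r at 0.891% (0.289% to 2.09%), while C1qa, C1qb and Retnla had no read. For Apoe the controls spanned these levels, for Icam2 each control was lower, down to 2 reads in control 3, and for Csf1r only 1 read was found in all controls.

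**Figure D3:**
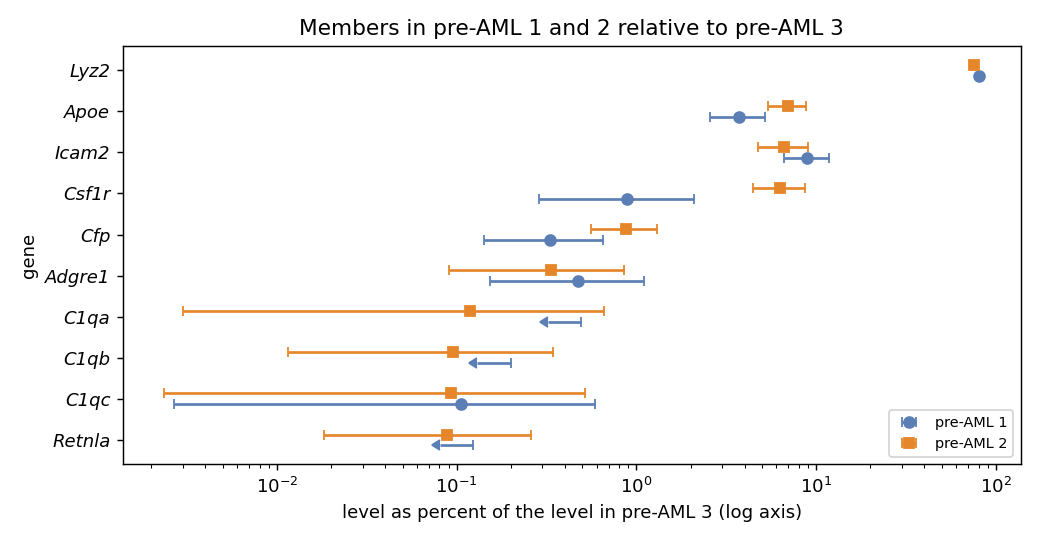
Level of each gene in pre-AML 1 (blue circles) and pre-AML 2 (orange squares) as a percentage of its level in pre-AML 3, on a logarithmic axis with 95% exact counting intervals; arrows start at the upper end of the interval where no read was found. Retnla and the C1q genes lie near 0.1%, Apoe and Icam2 between 3.72% and 8.92%, and Lyz2 at 80.3% and 75.4%.

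On the log2(FPKM + 1) scale, which understates the change of low genes, the difference between the means of pre-AML and control libraries was between 0.07 (Lyz2) and 2.60 (Retnla), with a median of 1.81 over the 10 members, against a median of -0.055 over all 4412 tested genes. Without pre-AML 3 the median over the members was 0.06. It was then largest for Icam2 (0.83), Cfp (0.42) and Csf1r (0.31), and below 0 for C1qb (-0.13), Retnla (-0.18) and Lyz2 (-0.05). All 10 members passed the filter of a mean of 1 FPKM, but 7 of them passed only through pre-AML 3, and Lyz2, Icam2 and Apoe would pass without it.

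RefSeq promoter windows (GRCm38.p6) were searched for 6 of the 10 genes, with 3 alternative starts for Apoe. Csf1r was left out of this search, and no window was available for C1qa, Adgre1 and Icam2. The 250 bases before the RefSeq start are shown for 3 members that were high only in pre-AML 3 and for Lyz2, which was high in all libraries, on the strand of each gene, 5′ to 3′. The windows of Cfp, likewise high only in pre-AML 3, and of Apoe are not shown. Capitals mark GAGGAA or its reverse complement TTCCTC, the core recognized by PU.1, the transcription factor of myeloid cells encoded by Spi1. The windows are chr4:136886201-136886450 (C1qb, minus strand), chr4:136892915-136893164 (C1qc, minus strand), chr16:48842359-48842608 (Retnla, plus strand) and chr10:117282273-117282522 (Lyz2, minus strand). They end at the RefSeq start, which lies inside the GENCODE gene given above for C1qc, Retnla and Lyz2, so that 151, 58 and 49 bases of these windows fall within that gene.
C1qb: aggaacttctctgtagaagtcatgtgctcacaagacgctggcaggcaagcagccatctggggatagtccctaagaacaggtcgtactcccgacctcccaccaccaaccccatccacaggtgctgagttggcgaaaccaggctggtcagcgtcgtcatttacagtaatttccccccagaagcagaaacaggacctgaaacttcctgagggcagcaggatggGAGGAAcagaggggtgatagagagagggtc
C1qc: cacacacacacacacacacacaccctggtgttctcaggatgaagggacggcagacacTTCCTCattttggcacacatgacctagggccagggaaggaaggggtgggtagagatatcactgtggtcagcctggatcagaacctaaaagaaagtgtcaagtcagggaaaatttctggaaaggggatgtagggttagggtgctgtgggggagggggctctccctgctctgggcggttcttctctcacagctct
Retnla: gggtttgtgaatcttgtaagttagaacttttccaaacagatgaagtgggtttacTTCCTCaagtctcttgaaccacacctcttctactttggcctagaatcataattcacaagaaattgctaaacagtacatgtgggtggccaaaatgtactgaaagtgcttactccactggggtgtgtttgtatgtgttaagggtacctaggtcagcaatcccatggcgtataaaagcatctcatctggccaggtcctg
Lyz2: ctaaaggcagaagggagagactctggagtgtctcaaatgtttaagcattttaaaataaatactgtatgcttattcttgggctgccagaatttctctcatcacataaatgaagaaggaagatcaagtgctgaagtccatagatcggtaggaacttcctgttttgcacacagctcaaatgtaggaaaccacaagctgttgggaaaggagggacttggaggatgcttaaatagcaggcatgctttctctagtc

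The hexamer began 30 bases before the RefSeq start in C1qb, 193 in C1qc and 196 in Retnla, and was found in 2 of the 3 windows of Apoe. It was absent from the windows of Lyz2 and of Cfp, which was also high only in pre-AML 3. Searched on both strands, it is present in 23.3% of all 32851 RefSeq windows of this length, so a match is common. The AP-1 site TGANTCA, searched on both strands and present in 6.75% of all windows, was in none of the windows of the 6 members. TATAAA, searched on the gene's strand only and present in 7.59% of all windows, began 30 bases before the start in Retnla and was also found in 1 window of Apoe. A match describes the letters of the window only. Spi1 itself was between 0.194 and 0.420 FPKM in the controls and at 0.445, 0.663 and 11.1 FPKM in pre-AML libraries 1 to 3, and was named after its values were seen.

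The remaining genes of the complement system were examined as lists without the members. Of 49 such genes, 33 were in the table and 13 averaged 1 FPKM or more. In limma-trend with Benjamini-Hochberg adjustment over the 4412 tested genes, 0 of the 13 had an adjusted p under 0.05, beside 0.0227% of all tested genes (1 gene, Gzma, which encodes granzyme A of cytotoxic lymphocytes and was named after its value was seen, with a log2 difference of 2.80 and an adjusted p of 0.00809). At an unadjusted p under 0.05, 4 of the 13 were lower in pre-AML platelets and 0 were higher, where 6.53% and 2.56% of all tested genes were. Limma-voom on the recovered reads also called 0 of the 13, with 3 at an unadjusted p under 0.05. Of the 13, Fcna, C4b and Itgam reached a mean of 1 FPKM only through pre-AML 3, so their place among the tested genes rests on the library in which they were high. The median log2 difference of the 13 was -0.17, also with the genes at 0 in all controls placed at their lower bound.

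The components of the classical and lectin pathways were low outside pre-AML 3. Fcna, which encodes ficolin A, a lectin made by macrophages of liver and spleen, was at 0 in all controls, at 0.383 and 0 FPKM in pre-AML 1 and pre-AML 2 and at 33.0 FPKM in pre-AML 3. Against a floor of 3 reads over the 3 controls, its pre-AML mean was at least 192-fold higher, a bound carried by pre-AML 3. C4b, for complement component C4, was at 0.0449, 0 and 0.0295 FPKM in the controls and at 0.0396, 0.186 and 10.4 FPKM in the pre-AML libraries. For both, the pre-AML libraries overlapped the controls. The log2 difference was 1.85 for Fcna and 1.24 for C4b with all libraries and 0.23 and 0.12 without pre-AML 3, and since that library alone took both past the filter no test is given. Colec11, a collectin, was between 0.219 and 0.570 FPKM in the controls and at 0.417, 0.654 and 0.502 FPKM in the pre-AML libraries.

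The central component C3 was at 0.414, 0.387 and 0.425 FPKM in the controls and at 0, 0.722 and 1.82 FPKM in pre-AML libraries 1 to 3. Cfb, which encodes factor B of the alternative pathway, was between 0.254 and 0.469 FPKM in the controls and at 0.218, 0.459 and 2.65 FPKM in the pre-AML libraries. Cfd, for factor D, moved otherwise and was at 0.832, 1.46 and 0 FPKM in the controls and at 0, 1.01 and 0.0930 FPKM in the pre-AML libraries. Of the 7 listed genes of the terminal pathway, C8g was the one in the table, at 0.151 FPKM or less in every library.

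Inhibitors of complement were of another order of abundance. Clu, which encodes clusterin, an inhibitor of the terminal complex stored in platelets, was at 2240, 2250 and 2551 FPKM in controls 1 to 3 and at 2472, 2631 and 2083 FPKM in pre-AML libraries 1 to 3. Its log2 difference was 0.03 (standard error 0.14, adjusted p = 0.952 in limma-trend), and the groups overlapped. Cd59a, for the membrane inhibitor CD59, was at 1013, 720.9 and 751.9 FPKM in the controls and at 668.7, 626 and 397 FPKM in the pre-AML libraries. Each pre-AML library was below each control, but the log2 difference of -0.57 (standard error 0.23) had an adjusted p of 0.522 in limma-trend. The paralogous Cd59b, whose reads may be partly shared with Cd59a, was at 403, 334 and 329 FPKM in the controls and at 377, 351 and 231 FPKM in the pre-AML libraries, which overlapped.

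The same order of groups as for Cd59a was seen in 3 more tested genes, named after their values were seen where the rule did not cover them. Cd55, for the inhibitor of convertases, was at 11.1, 7.95 and 7.50 FPKM in the controls and at 7.16, 6.50 and 3.97 FPKM in the pre-AML libraries, a log2 difference of -0.53 (standard error 0.22, adjusted p = 0.522 in limma-trend). Cr1l, which encodes the rodent regulator Crry, had 5.42 ± 0.308 FPKM in the controls and 3.97 ± 0.512 FPKM in pre-AML platelets (SD, n = 3 each), a log2 difference of -0.37. C3ar1, for the receptor of C3a, had 19.6 ± 3.45 FPKM in the controls and 14.0 ± 2.68 FPKM in pre-AML platelets (SD, n = 3 each), a log2 difference of -0.46. The regulator gene Susd4, too low to be tested, had the same order, at 0.486, 0.461 and 0.457 FPKM in the controls and 0.0974, 0.0859 and 0.233 FPKM in the pre-AML libraries. In all, 4 of the 13 tested complement genes lay lower in every pre-AML library than in every control, beside 12.8% of all tested genes, and none of these differences passed the test. With the libraries scaled to the same FPKM total, which moved the median of all genes from -0.055 to 0.084, Cd59a was at -0.40, Cd55 at -0.39, C3ar1 at -0.30 and Cr1l at -0.23. Without pre-AML 3, Cd59a was at -0.34, Cd55 at -0.32, C3ar1 at -0.36 and Cr1l at -0.28.

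Among the complement receptors the most abundant was Itgb2. It encodes the beta chain shared by the complement receptors CR3 and CR4 and by LFA-1, the partner of ICAM-2, and was at 321, 299 and 342 FPKM in the controls and at 320, 357 and 345 FPKM in the pre-AML libraries, a log2 difference of 0.09 (adjusted p = 0.784 in limma-trend). Itgal, the alpha chain of LFA-1, had 40.4 ± 6.16 FPKM in the controls and 41.9 ± 3.89 FPKM in pre-AML platelets (SD, n = 3 each). Itgam, the alpha chain of CR3, was at 0 in all controls and at 0.236, 0.270 and 17.3 FPKM in pre-AML libraries 1 to 3, from 16, 20 and 2028 reads. Its pre-AML mean was at least 375-fold higher against 3 reads over the 3 controls, a bound carried by pre-AML 3. Its log2 difference was 1.61 with all libraries and 0.33 without pre-AML 3, and no test is given, as for Fcna. Vsig4, the complement receptor of resident macrophages, had no read in 5 libraries and 192 reads in pre-AML 3, at 5.55 FPKM, at least 181-fold higher against 3 reads over the 5. C5ar1, for a receptor of C5a, had 4 reads in control 2, 242 in pre-AML 3 and none in the other libraries. Itgax, the alpha chain of CR4, did not share this pattern, at 0.763, 0.547 and 0.315 FPKM in the controls and 0.282, 0.593 and 0.232 FPKM in the pre-AML libraries. C5ar2 was at 0 in pre-AML 3 and the controls. Itgam, Vsig4, C5ar1, Itgax and C5ar2 were named after their values were seen.

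The widely expressed C1q-binding protein calreticulin (Calr) was at 58.9, 37.7 and 33.3 FPKM in the controls and at 32.2, 34.6 and 31.9 FPKM in the pre-AML libraries, a log2 difference of -0.34 (adjusted p = 0.550 in limma-trend). Most of that difference lay in control 1. Of 22 relatives and partners of the members, 18 were in the table and 6 were tested (Itgam and Lyz1 only through pre-AML 3), of which 0 had an adjusted p under 0.05 in limma-trend or limma-voom and 0 had an unadjusted p under 0.05 in limma-trend. Adgre5, the relative of F4/80 that encodes CD97, had 35.02 ± 2.273 FPKM in the controls and 35.3 ± 0.279 FPKM in pre-AML platelets (SD, n = 3 each).

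**Figure D4:**
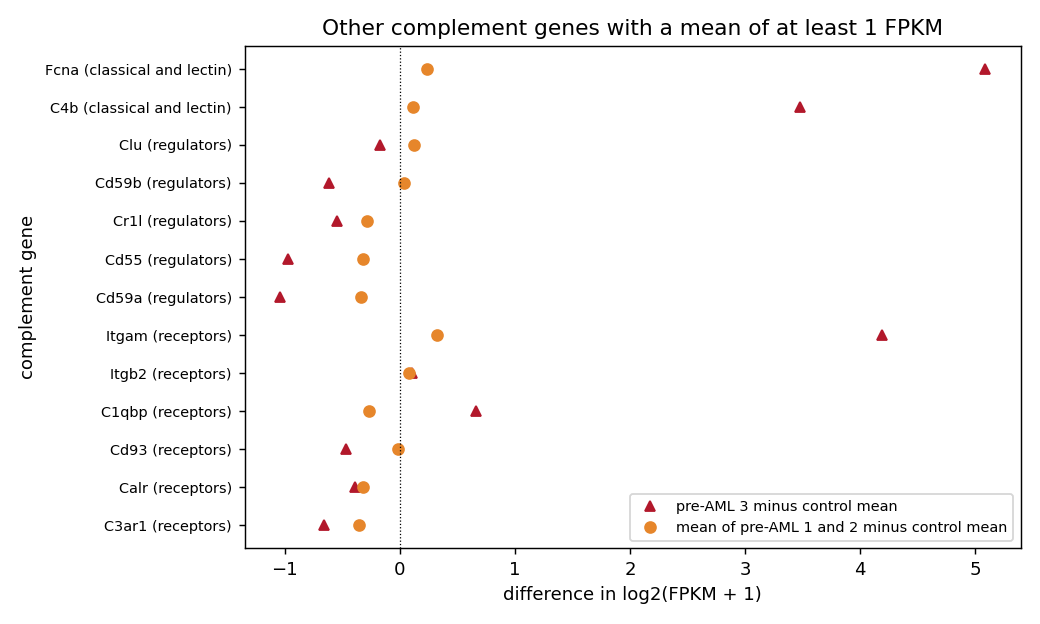
Differences from the control mean in log2(FPKM + 1) for the 13 tested complement genes that are not members, for pre-AML 3 (red triangles) and for the mean of pre-AML 1 and pre-AML 2 (orange circles), with a dotted line at no difference. Fcna, C4b and Itgam lie far to the right in pre-AML 3, while Cd55, Cd59a, Cr1l and C3ar1 lie to the left of the line in both.

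Markers of other cells moved with the members in pre-AML 3, and their part in the result was not tested. The 19 macrophage core genes summed to between 13.4 and 17.6 FPKM in the controls, to 20.7 and 18.1 FPKM in pre-AML 1 and pre-AML 2 and to 142 FPKM in pre-AML 3, where 17 of the 19 had their highest level. Ctss (cathepsin S) reached 47.6 FPKM and Fcgr3, an Fc receptor, 20.9 FPKM there. Trem2, between 9.80 and 13.4 FPKM in the controls, was at 8.16 FPKM in pre-AML 3 and did not follow. It was named after its values were seen. Of all tested genes, 18.7% had their highest level in pre-AML 3. The list counts also take in genes too low to be tested, and only 7 of these 19 were tested. The shares are thus of unlike sets of genes. High counts were not particular to macrophages, as those for monocyte and lymphocyte genes below show.

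The 12 genes of serous-cavity macrophages summed to between 0.199 and 0.669 FPKM in the controls, to 0.0505 and 0.390 FPKM in pre-AML 1 and pre-AML 2 and to 198 FPKM in pre-AML 3, and all 12 were highest there. Alox15, a lipoxygenase, was at 86.1 FPKM and Fn1 (fibronectin) at 49.8 FPKM. Gata6, the factor that defines large peritoneal macrophages, had 26 reads in pre-AML 3, at 0.171 FPKM, and at most 1 read in any other library. Of the 11 genes of liver and red pulp macrophages, 10 were in the table and summed to between 3.32 and 6.23 FPKM in the controls and to 7.65, 6.80 and 61.7 FPKM in the pre-AML libraries. Most of the level in pre-AML 3 was Cd5l, which macrophages secrete, at 42.3 FPKM, while Spic, the factor of red pulp macrophages, had no read in pre-AML 3. Only 5 of the 10 liver and red pulp genes were highest in pre-AML 3. Vsig4, Timd4, Marco and Cd163 are on more than 1 of these lists.

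The 14 blood monocyte genes summed to between 18.3 and 21.6 FPKM in the controls and to 18.4, 23.9 and 106 FPKM in pre-AML libraries 1 to 3, of which S100a4 made up 81.9 FPKM in pre-AML 3 and Plac8 11.8 FPKM. The B cell list was likewise highest in pre-AML 3, at 1.93, 7.42 and 89.2 FPKM in the pre-AML libraries and between 1.93 and 2.47 FPKM in the controls, with Cd79a at 23.6 and Ly6d at 23.3 FPKM in pre-AML 3. The neutrophil list, of cells that also make lysozyme, was between 3.19 and 3.66 FPKM in the controls and at 4.998, 2.235 and 2.81 FPKM in the pre-AML libraries. Its S100a8 was between 1.09 and 1.60 FPKM in the controls and at 2.38, 0.191 and 0.123 FPKM in the pre-AML libraries. Pre-AML 3 held the highest level for 13 of the 14 monocyte genes and 10 of the 12 genes marking B cells. It did so for 3 of the 13 neutrophil genes. The mesothelial list reached 1.34 FPKM in pre-AML 3 and at most 0.623 FPKM in the controls. Of the 8 eosinophil genes, 4 were in the table. They summed to 1.21 FPKM in pre-AML 2 and 1.47 FPKM in pre-AML 3, against at most 0.917 FPKM in the controls. Csf3r, for the receptor of G-CSF on neutrophils and monocytes, was the highest of the neutrophil list in pre-AML 3, at 1.14 FPKM from 96 reads, with at most 1 read in any other library, and was named after its values were seen. Of the genes that lead these sparse lists in the pre-AML libraries, those below 1 FPKM in pre-AML 3 included Mmp8 (0.795 FPKM), Ear2 (0.775 FPKM), Siglecf (0.476 FPKM), Upk3b (0.571 FPKM), Krt19 (0.416 FPKM), Apoa1 (0.208 FPKM) and Ttr (0.108 FPKM).

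The endothelial list was between 59.5 and 68.2 FPKM in the controls and at 67.1, 69.0 and 59.3 FPKM in the pre-AML libraries. Whether it bears on the level of Icam2 was not tested. Most of it was Plvap, between 34.4 and 40.9 FPKM in all libraries, and Tie1. The T and NK cell list was between 19.1 and 28.4 FPKM in controls and at 28.6, 29.5 and 35.2 FPKM in the pre-AML libraries. Nkg7 was its most abundant gene, and Cd2 was at 6.84 FPKM in pre-AML 3. Although Nkg7 was not among them, 9 of its 11 genes were highest in pre-AML 3. The same held for 0 of the 10 endothelial genes and 3 of the 7 dendritic cell genes. The dendritic cell list, led by Xcr1 and Clec9a, was between 8.77 and 12.0 FPKM in the controls and at 10.1, 9.48 and 10.2 FPKM in the pre-AML libraries, the erythroid list, led by Hba-a1 and Hbb-bt, at between 2365 and 2665 FPKM in the controls and at 3000, 2896 and 2387 FPKM in the pre-AML libraries, and the leukemic progenitor list, led by Meis1 and Cd34, at between 1.29 and 2.55 FPKM and at 1.59, 1.42 and 1.13 FPKM. Hba-a1 itself was higher in each pre-AML library (2023, 1799 and 1721 FPKM) than in each control (1200, 1506 and 1310 FPKM). The platelet list summed to between 92619 and 116476 FPKM in the controls and to 93595, 95220 and 63753 FPKM in the pre-AML libraries.

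Ptprc, which encodes the CD45 antigen used to remove leukocytes, was at 0.0863, 0.00600 and 0.0142 FPKM in controls 1 to 3 and at 0.140, 0.179 and 1.57 FPKM in pre-AML libraries 1 to 3, from 19, 2 and 3 reads against 34, 49 and 672. It was named after its values were seen. The summed pan-leukocyte list was not higher in pre-AML 3, at 2843 FPKM against between 3059 and 3515 FPKM in the controls, and it was made up mostly of Fcer1g and Laptm5, which were abundant in all libraries. Yet 5 of its 8 genes, of which 7 were tested, were highest in pre-AML 3, beside 18.7% of all tested genes. Tyrobp, for the signaling adaptor DAP12, was at 0.128, 0.533 and 0.126 FPKM in the controls and at 4.85, 4.37 and 153 FPKM in the pre-AML libraries. Both other pre-AML libraries thus also exceeded every control, an order of groups seen in 6.14% of all tested genes. Cd48 was at 0 in the controls and at 0.759, 0.557 and 8.69 FPKM in the pre-AML libraries. Cd52 and Coro1a reached 17.04 and 28.7 FPKM in pre-AML 3, while in pre-AML 1 and pre-AML 2 they were near the levels of the controls. Cd53 went the other way, at 54.4, 37.3 and 35.75 FPKM in the controls and at 29.6, 25.1 and 30.1 FPKM in the pre-AML libraries. Its log2 difference was -0.55 (adjusted p = 0.522 in limma-trend). Each pre-AML library was below each control, as for 12.8% of all tested genes. Tyrobp, Cd48, Cd52, Coro1a and Cd53 were named after their values were seen.

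**Figure D5:**
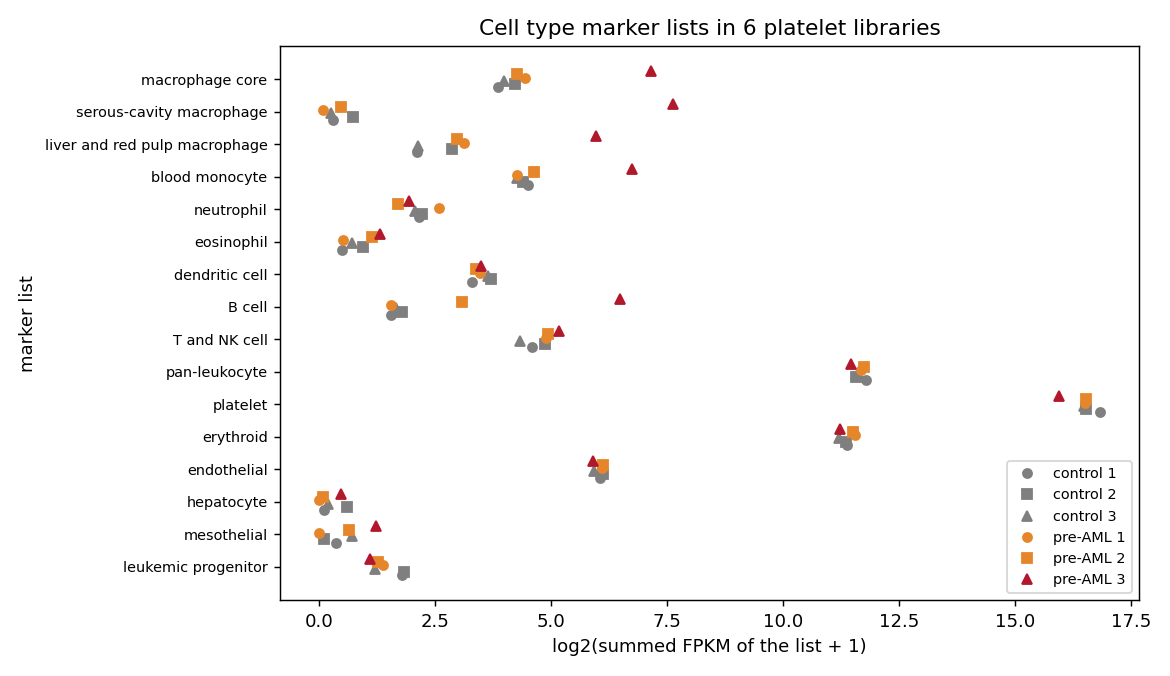
Summed FPKM of each marker list as log2(sum + 1) on the horizontal axis, 1 point per library with the same symbols as in the plot of the members. Pre-AML 3 lies to the right of the other libraries for the macrophage, monocyte and B cell lists. It does so by less for the T and NK cell, mesothelial and eosinophil lists. It lies to the left for the platelet list and, by less, for the pan-leukocyte, leukemic progenitor and endothelial lists.

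Among tested genes outside the members, the 5 whose log2(FPKM + 1) profile over the 6 libraries was closest to the mean profile of C1qa, C1qb and C1qc were Fn1, Alox15, Cd5l, Ccl6 and Wfdc17, at root mean square distances of 0.17, 0.20, 0.26, 0.30 and 0.42. Ccl6, a chemokine of myeloid cells, was at 41.7 FPKM in pre-AML 3 and at most 0.406 FPKM in the other libraries. Wfdc17 was at 110 FPKM in pre-AML 3 and at most 0.423 FPKM elsewhere. Among the members, Cfp (0.50) and Adgre1 (0.55) were nearest to the C1q profile after the C1q genes themselves, and Lyz2 (10.5) was farthest. The measure is set almost wholly by 1 library, so it describes likeness of level in pre-AML 3 more than a shared course over conditions.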

How the data were processed

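Platelet RNA of 3 control and 3 pre-AML libraries (SMART-Seq2, Nextera XT) was analysed. The authors mapped reads to mm10 with STAR (2.5.2b) and deposited FPKM values; the counting program and annotation are not given in the sources used here. Columns were mapped to samples by name. Members and lists were chosen with earlier results of these data known.

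Whole reads were recovered as FPKM times union exon length (GENCODE M21, GRCm38, 14904 genes with a length) times library size. Within 0.02 reads, 85.5% of values came out whole; for Apoe a length of 2002 in place of 2138 bases was needed. Depths given are sums of recovered reads over these genes.

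Genes averaging 1 FPKM or more were tested two-sided by limma-trend on log2(FPKM + 1) under R 4.3.3 (limma version 3.58.1); no covariate entered, and p was adjusted by Benjamini-Hochberg (threshold 0.05). The fit was tested on simulated data with the same spread in every library and no outlying library, so not for a case like pre-AML 3. Ratios carry 95% Clopper-Pearson intervals (scipy 1.17.1). Named were all members, the 3 highest genes by mean of each complement and partner list, the 2 highest in any pre-AML library of each marker list and the 5 nearest to the C1q profile. Other genes were named after their values were seen. Alternatives were no filter, a pseudocount of 0.1, scaling to the same FPKM total, the replicate number as a block, each library left out and limma-voom on recovered reads. No set test was run.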

Additional observations from a re-analysis of the deposited data

How the results depend on the processing

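The fit over all genes called 1 gene higher and 0 lower, and 0 complement or partner genes, under the main settings. The count of genes higher was 0 with no filter, with the libraries scaled to the same FPKM total and with limma-voom, between 0 and 2 with each library left out (2 without pre-AML 3, and 0 without control 1, control 3 or pre-AML 1), and 1 with a pseudocount of 0.1. No complement or partner gene was called under any of the 11 alternatives. With the replicate number as a block, 1 gene was called higher and 0 lower, and no call on a list changed. No source says what the replicate numbers stand for, and the deviations of same-numbered libraries correlated at -0.043, -0.116 and -0.174.

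The median log2 difference over the members was 1.81 and between 0.06 and 2.54 with each library left out, lowest without pre-AML 3. It was 2.993 with a pseudocount of 0.1 and 3.803 with limma-voom. Without pre-AML 3 the difference of single members turned to -0.134 for C1qb, -0.178 for Retnla and -0.048 for Lyz2 and was 0.01 for C1qa, 0.03 for C1qc and 0.11 for Adgre1. The highest values with 1 library left out were 3.369 for C1qb, 4.099 for Retnla and 0.155 for Lyz2. 

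With the libraries scaled to the same FPKM total, the log2 difference of the summed list turned to 0.091 for neutrophil, 0.064 for dendritic cell and 0.154 for pan-leukocyte genes. It moved to 0.591 for T and NK cell and 0.191 for endothelial genes. All FPKM summed to 376148 in pre-AML 3 and to between 508605 and 541784 in the other libraries. Scaling therefore raised pre-AML 3 relative to the others, and why its total was lower was not tested. Levels under 3 reads are not detectable from 0 at this depth, and 3 against 3 libraries limit every comparison.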
